A study of Arabidopsis thaliana with 6 samples.

Results

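The AT-hook motif nuclear localized (AHL) genes of Arabidopsis thaliana encode nuclear proteins that bind the minor groove of AT-rich DNA through an AT-hook and bind each other and other nuclear factors through a plant and prokaryote conserved domain. Taken up here are 10 of the 29 genes numbered as AHL: AHL13 and 9 relatives, chosen by gene identifier from a table of 27371 genes. All 10 were in the table, and all 10 had a mean level high enough to be tested. AHL13 (AT4G17950) is the gene disrupted in the plants.

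All 6 libraries came from whole seedlings aged 14 days of the line ahl13-1, a T-DNA insertion line of the SALK collection, so the controls carry the insertion too. The 3 control libraries came from seedlings labelled only as control, and the labels do not say whether these received a mock spray. Below, treatment means Pst hrcC, so values without treatment are those of the control libraries. The 3 treated libraries came from seedlings that a Pst hrcC suspension of optical density (OD600) 0.002 was sprayed on, taken after 24 hours. Pst hrcC, a mutant of the bacterium Pseudomonas syringae pv. tomato, cannot deliver effector proteins through its type III secretion system and still carries the microbial patterns that plants detect. Wild-type plants were not analysed here, so no value below is a difference between genotypes, and 1 insertion line stands for the loss of AHL13.

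As background, the family falls into clade A (AHL15 to AHL29) and clade B (AHL1 to AHL14). Clade A members such as AHL27 and AHL29 restrain growth of the hypocotyl in light, AHL22 delays flowering when overexpressed, and AHL15 promotes juvenile traits and embryo formation from vegetative tissue. A link to immunity is known for AHL20, whose overexpression weakens defence gene induction by microbial patterns, and for AHL19, which raises resistance to Verticillium; the title of the series places AHL13 in pattern-triggered immunity. The comparison therefore asks whether transcripts of the family themselves move after a pattern-bearing strain in plants that carry the AHL13 insertion.

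After Pst hrcC no AHL member passed the test. In limma on log2(FPKM + 1), where FPKM is the number of fragments divided by transcript length and by the mapped fragments of the library, 0 of the 10 members passed an adjusted p of 0.05 over all 16923 tested genes, and 0 had an unadjusted p under 0.05. Over all tested genes 49 passed, or 0.290%, so a count of 0 in 10 genes is near that background and is not a result about the family. The size of what could be seen in this fit is given by the intervals: the 95% intervals of the 10 log2 differences lay between -0.65 and 0.75. The fit has treatment alone as a term, so spread between replicate numbers is part of their width. The lower end belongs to AHL15 and the upper to AHL29, the members whose values varied most with the replicate number, as described below. The median difference of the 10 was 0.11, beside 0.04 over all tested genes, and 6 of the 10 were positive, beside 9733 of the 16923 tested genes.

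**Figure D1:**
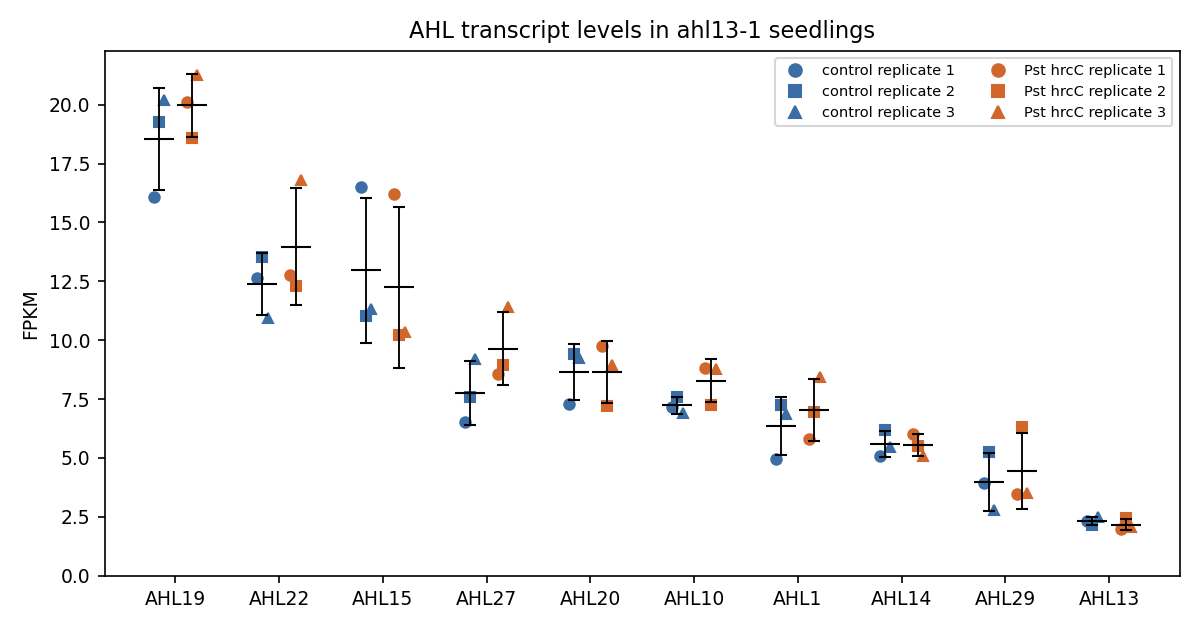
Level of each of the 10 AHL members in every library (y axis, FPKM), ordered by mean level; blue marks are control and orange marks Pst hrcC libraries, the shape gives the replicate number, and black bars are the group mean and SD (n = 3). The groups overlap for every one of the 10 genes, from AHL19 at the top to AHL13 at 1.98 to 2.47 FPKM.

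Control replicates 1, 2 and 3 gave 2.32, 2.17 and 2.47 FPKM of AHL13, and the same-numbered Pst hrcC libraries gave 1.98, 2.43 and 2.08 FPKM. Treated replicate 2 lies inside the control range and treated replicates 1 and 3 lie below it, so the groups overlap. From 2.32 ± 0.15 to 2.16 ± 0.24 FPKM (SD, n = 3 each; two-sided exact permutation p = 0.4, where 3 against 3 cannot go below 0.1), the log2 difference was -0.07 ± 0.12 (SE), with a 95% interval from -0.37 to 0.23 (limma adjusted p = 1.00).

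AHL13 had the lowest mean of the 10 members and held between 2.11% and 2.89% of their summed FPKM in each library. Transcript signal was thus present in the insertion line in all 6 libraries. The position of the insertion is not given in the sources used here, and a gene-level value does not show where on the gene the reads lie, so these levels do not check the mutation. In the RefSeq annotation of TAIR10.1 the AHL13 gene spans 2513 bp in 5 exons and shares 294 bp with AT4G17940, a protein-coding gene on the opposite strand. AT4G17940 was at 22.4, 18.7 and 24.8 FPKM in the 3 control libraries, against 19.7, 16.9 and 24.5 FPKM once treated, far above AHL13 in every library. The library's strand is not given in the sources used here, and reads from the shared stretch cannot be told apart between these genes.

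The number of fragments behind the AHL13 values was small. The lowest values of genes with 1 annotated transcript form a peak that corresponds to about 1 fragment, and on that scale AHL13 rested on about 32, 148 and 92 fragments in controls and on about 132, 135 and 22 after Pst hrcC. Counting alone then gives a relative error near 17.8% in control replicate 1 and 21.4% in Pst hrcC replicate 3, the least deep libraries, and between 8.21% and 10.4% in the other 4. The whole spread of AHL13 over the 6 libraries, a coefficient of variation of 8.86%, lay at the low end of these errors. These fragment numbers are approximate, since they use RefSeq transcript lengths rather than the annotation of the study, and they cover counting error only.

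The 3 other clade B members were read at moderate levels. AHL10 (AT2G33620), a regulator of growth under low water availability, was measured as 7.16, 7.61 and 6.91 FPKM without treatment, and as 8.83, 7.24 and 8.78 FPKM with it. Treated replicates 1 and 3 lie above all controls and replicate 2 lies among them. The mean of AHL10 was 7.23 ± 0.35 FPKM without and 8.28 ± 0.90 FPKM with treatment (SD, n = 3 each), and the log2 difference came to 0.17 ± 0.13 (SE; adjusted p = 1.00 in limma). AHL10 shares 51 bp with AT2G33630 on the opposite strand, which was at 14.9 ± 2.35 and 17.3 ± 1.22 FPKM (SD, n = 3 each).

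AHL1 (AT4G12080), described as a protein of matrix attachment regions, was at 4.94, 7.26 and 6.86 FPKM in control seedlings, and in treated seedlings at 5.79, 6.94 and 8.42 FPKM. Both replicate 1 libraries are below the 4 others, and the groups overlap (log2 difference 0.13 ± 0.19, SE; limma adjusted p = 1.00). AHL14 (AT3G04590) was at 5.09, 6.19 and 5.47 FPKM in the 3 control libraries, against 6.03, 5.50 and 5.09 FPKM once treated. The AHL14 means, 5.58 ± 0.56 without and 5.54 ± 0.47 FPKM with treatment (SD, n = 3 each), differed by far less than the spread within either group.

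Among the 6 clade A members, AHL19 (AT3G04570) had the highest level of the 10. It was measured as 16.1, 19.3 and 20.2 FPKM without treatment, and as 20.1, 18.6 and 21.3 FPKM with it. Control replicate 1 is its lowest library, and the other 5 lie within 18.6 to 21.3 FPKM. The log2 difference was 0.11 ± 0.15 (SE, limma adjusted p = 1.00), 0.015 without control replicate 1 and 0.0525 under median-of-ratios scaling.

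AHL20 (AT4G14465), the member reported to weaken pattern responses, was at 7.28, 9.42 and 9.25 FPKM in control seedlings, and in treated seedlings at 9.76, 7.22 and 8.96 FPKM. Both means were 8.65 FPKM, with an SD of 1.19 in the controls and 1.3 in the treated libraries (n = 3 each), and the 95% interval of the log2 difference ran from -0.40 to 0.39. It was higher after treatment in the replicate 1 pair, by 0.38 on the log2 scale, and lower in the replicate 2 pair, with a log2 difference of -0.34.

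AHL22 (AT2G45430) was at 12.6, 13.52 and 10.9 FPKM in the 3 control libraries, against 12.8, 12.3 and 16.8 FPKM once treated. Its treated replicate 3 stands above the 5 other libraries, which lie within 10.9 to 13.52 FPKM. The log2 difference was 0.16 ± 0.17 (SE, limma adjusted p = 1.00), and 0.02 without Pst hrcC replicate 3.

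AHL27 (AT1G20900, ESCAROLA) had the largest log2 difference among the 10. It was measured as 6.51, 7.58 and 9.20 FPKM without treatment, and as 8.58, 8.93 and 11.4 FPKM with it, so that control replicate 3 lies above the lower treated libraries and the groups overlap. The means were 7.76 ± 1.36 and 9.64 ± 1.54 FPKM (SD, n = 3 each; two-sided exact permutation p = 0.3). The log2 difference was 0.28 ± 0.17 (SE), with a 95% interval from -0.14 to 0.70 (limma adjusted p = 0.987). Single libraries weigh on it: it was 0.17 without Pst hrcC replicate 3, 0.18 without control replicate 1 and 0.40 without control replicate 3. AHL27 was the single member higher in all 3 same-numbered pairs, by 0.35, 0.21 and 0.28 on the log2 scale, while 21.2% of all tested genes were higher in all 3. In the fit blocked on replicate number its unadjusted p was 0.0408 and its adjusted p in limma 0.393.

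AHL29 (AT1G76500, SOB3), which acts with AHL27 in restraining hypocotyl growth, was at 3.95, 5.23 and 2.77 FPKM in control seedlings, and in treated seedlings at 3.48, 6.32 and 3.53 FPKM. The replicate 2 libraries are the highest in both groups. Its log2 difference of 0.12 ± 0.27 (SE) has the widest interval of the 10, from -0.52 to 0.75. AHL15 (AT3G55560) was at 16.5, 11.0 and 11.3 FPKM in the 3 control libraries, against 16.2, 10.2 and 10.4 FPKM once treated. Replicate 1 is high in both groups, and the treated value was the lower in each of the 3 pairs, with log2 differences of -0.03, -0.10 and -0.12, as was the case for 13.5% of all tested genes. Over the groups the log2 difference of AHL15 was -0.08 ± 0.24 (SE, limma adjusted p = 1.00).

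**Figure D2:**
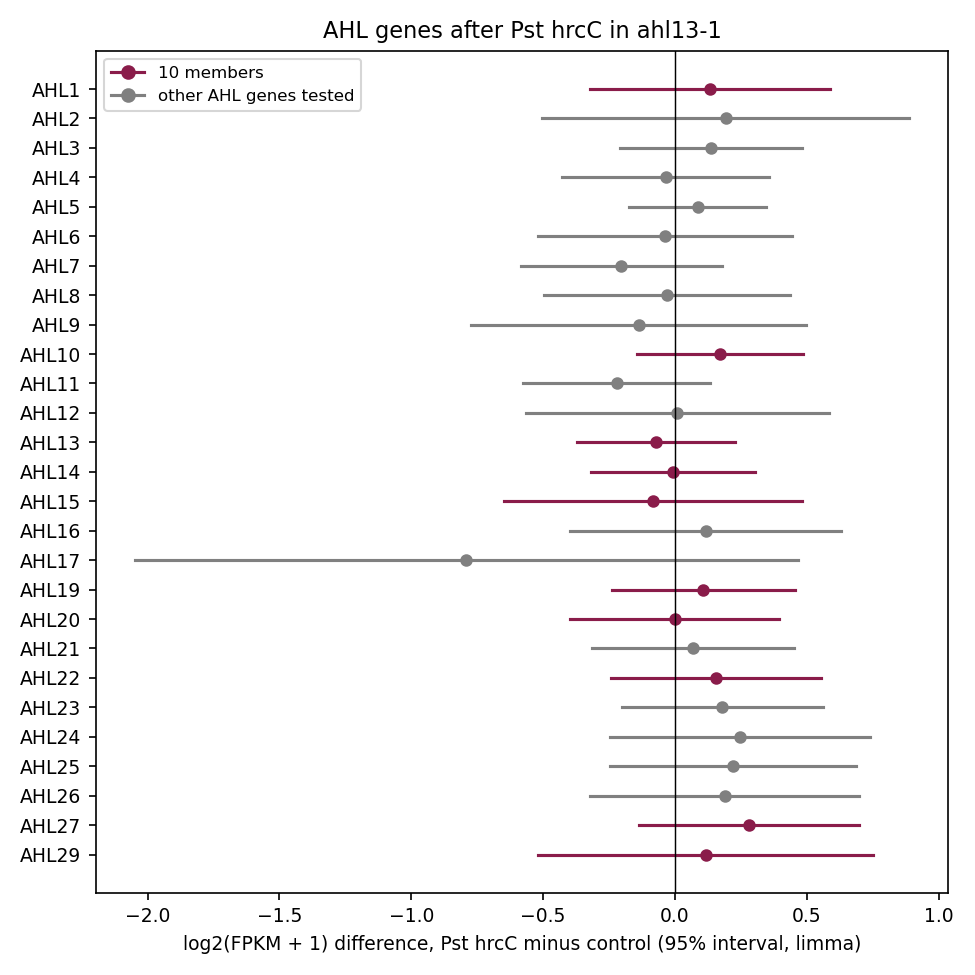
Difference in log2(FPKM + 1) between Pst hrcC and control libraries (x axis) with its 95% interval from limma for the 27 AHL genes tested (y axis); purple marks the 10 members and grey the 17 other genes. Every interval crosses 0, those of the members within -0.65 to 0.75, and the widest belongs to AHL17, from -2.05 to 0.47.

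Across genes, the order of the mean FPKM over the 6 libraries, a scale per length, ran AHL19 (19.3), AHL22 (13.2), AHL15 (12.6), AHL27 (8.70), AHL20 (8.65), AHL10 (7.75), AHL1 (6.70), AHL14 (5.56), AHL29 (4.21) and AHL13 (2.24). Only 3 of the 9 neighbouring steps were larger than the SD of their paired difference over libraries. AHL19 exceeded AHL22 in all 6 libraries, by 0.52 ± 0.19 on the log2(FPKM + 1) scale (SD over 6 libraries). AHL29 exceeded AHL13 in all 6, by 0.65 ± 0.35, and AHL14 exceeded AHL29 in 5, by 0.36 ± 0.34. On this scale the added 1 FPKM makes steps between low genes smaller than their ratio of FPKM. Within the run from AHL22 to AHL14 no neighbours differed beyond their spread. The order of these steps held in all 6 libraries for AHL10 over AHL1, in 5 for AHL15 over AHL27 and for AHL20 over AHL10, in 4 for AHL1 over AHL14, in 3 for AHL22 over AHL15 and in 2 for AHL27 over AHL20.

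The summed level of the 10 members averaged 85.7 ± 3.41 FPKM over the control and 92.0 ± 5.68 FPKM over the treated libraries (SD, n = 3 each), and ranged from 82.5 to 96.7 FPKM over the libraries. The 6 clade A members held 64.2 ± 1.61 and 68.9 ± 4.71 FPKM of it, and the 4 clade B members 21.5 ± 1.87 and 23.0 ± 1.18 FPKM. In bulk seedlings, fewer cells of a type and less RNA per cell cannot be told apart. Within groups the members varied by a median SD of 0.19 on the log2(FPKM + 1) scale, from 0.09 for AHL13 to 0.38 for AHL29, and the median over all tested genes was 0.23.

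Gene structure, which played no part in choosing the members, followed the clades. In RefSeq (TAIR10.1) 5 of the 6 clade A members and 14 of the 15 clade A genes consist of 1 exon, the exception being AHL15 with 2, while all 4 clade B members and all 14 clade B genes have 4 or more. AHL14 and AHL19 flank a single gene, EIN4 (AT3G04580), an ethylene receptor; AHL1 and AHL26 have 2 table genes between them. None of the 10 members shares an exact stretch of 50 bases of transcript with any other AHL gene. Stretches that differ by a few bases were not looked at, so a division of reads between paralogs was not tested beyond exact matches.

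The libraries were also compared by replicate number, and 0 of the 10 members passed that test. The labels give replicate numbers and no batch. Of 8 circadian clock genes tested, 7 had both replicate 1 libraries wholly above or below the 4 others; PRR7 was the exception, at 17.97 to 30.6 FPKM with no such split. CCA1, a transcription factor of the morning, was at 14.5 and 16.0 FPKM in the control and Pst hrcC libraries of replicate 1 and between 0.16 and 0.23 FPKM in the 4 others. TOC1, which peaks in the evening, was at 6.28 and 6.58 FPKM in replicate 1 and between 46.3 and 66.9 FPKM in the others. AHL15 shared the split: its replicate 1 values of 16.5 and 16.2 FPKM stand above 10.2 to 11.3 FPKM in the 4 other libraries, and AHL1 was below them, at 4.94 and 5.79 against 6.86 to 8.42 FPKM. Their relation to the clock genes was not tested.

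**Figure D3:**
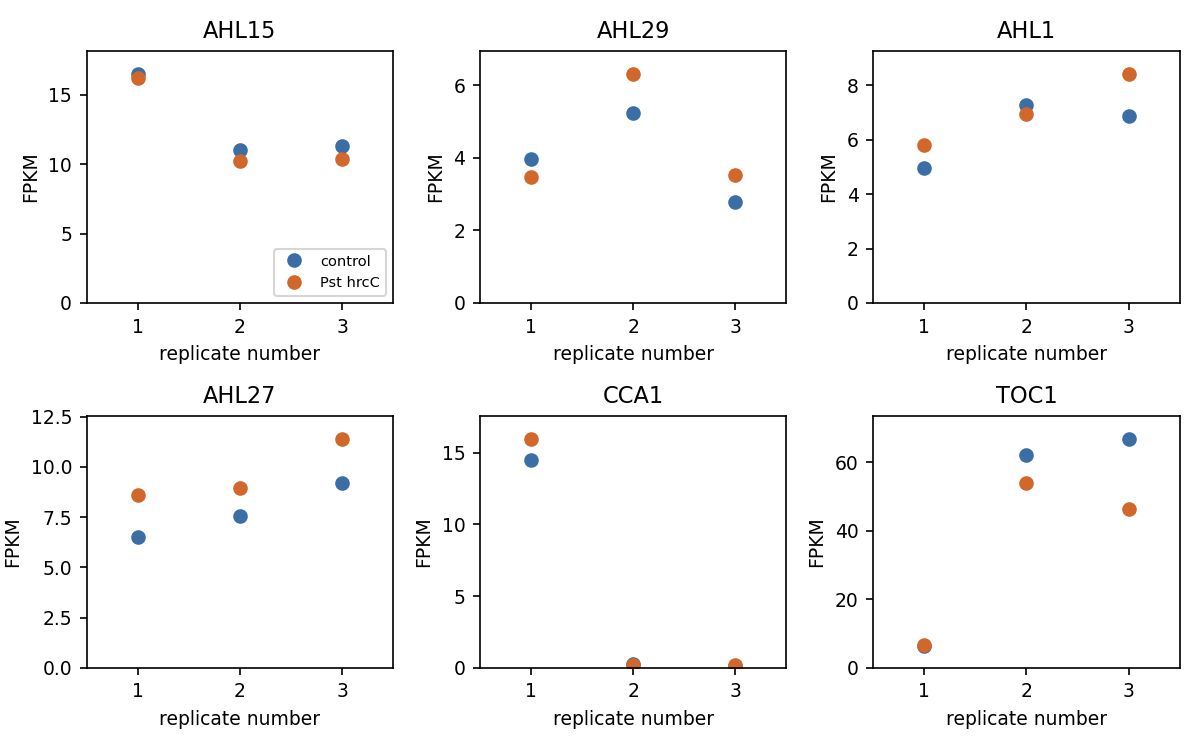
FPKM (y axes, each from 0) by replicate number (x axes) for 4 AHL members and the clock genes CCA1 and TOC1; blue points are control and orange points Pst hrcC libraries. AHL15 and CCA1 are high in both replicate 1 libraries and TOC1 is low there, and AHL29 is highest in both replicate 2 libraries. For TOC1 the control and treated points of replicate 3 lie apart, at 66.9 and 46.3 FPKM.

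An F test of the replicate number beside treatment, added after the values were seen, was passed by 0 of the 10 members and by 2.17% of all tested genes. The lowest limma adjusted p among the members were 0.106 for AHL15 and 0.133 for AHL29, the 2 members with an unadjusted p under 0.05 (0.00890 and 0.0164); of all tested genes 3989 had one. The replicate 1 pair lay wholly above or below the 4 other libraries in 2 of the 10 members, AHL15 and AHL1, beside 35.1% of all tested genes. For the replicate 2 pair it was 1 of 10, AHL29, beside 12.6%, and for the replicate 3 pair 2 of 10, AHL19 and AHL27, beside 20.3%. These shares lie near or below the background. Without the replicate 1 pair 0 of the 10 members changed after Pst hrcC in limma, and the log2 difference of AHL15 was -0.11 and that of AHL27 0.25.

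None of the 19 other AHL genes passed either. Of these, 17 were tested, 0 passed in limma and 0 had an unadjusted p under 0.05, with 10 positive and 7 negative log2 differences and a median of 0.07, beside 9733 positive and 7190 negative over all tested genes. AHL18 and AHL28 had a mean under 1 FPKM and were not tested; AHL28 was listed at 0 in Pst hrcC replicate 3, the library of lowest depth. The summed level of the 19 was 84.6 ± 3.56 FPKM over the control and 85.0 ± 4.06 FPKM over the treated libraries (SD, n = 3 each), so the 10 members held between 50.2% and 52.5% of the family's FPKM in each library. AHL11, AHL16 and AHL9 share 3010, 1203 and 308 bp with table genes on the opposite strand, so these sums may hold reads of those genes.

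AHL17 (AT5G49700) had the smallest p of the 19. It was measured as 5.97, 1.76 and 2.98 FPKM without treatment, and as 4.13, 0.886 and 0.531 FPKM with it. The treated value is the lower in every pair, as for 13.5% of all tested genes, while the treated replicate 1 exceeds control replicates 2 and 3, so the groups overlap. On the log2 scale it differed by -0.79 ± 0.53 (SE, limma adjusted p = 1.00). In the fit blocked on replicate number its unadjusted p in limma was 0.0143 and its adjusted p 0.272. Without control replicate 1 the log2 difference of AHL17 was -0.43, without Pst hrcC replicate 3 it was -0.45, and without Pst hrcC replicate 1 it was -1.32. Pst hrcC replicate 3 rests on about 4 fragments of AHL17.

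Next by p were AHL11 (AT3G61310), at 10.4 ± 0.90 and 8.85 ± 1.27 FPKM, and AHL7 (AT4G00200), at 1.44 ± 0.29 and 1.118 ± 0.244 FPKM, each without and then with treatment (SD, n = 3; limma adjusted p = 1.00 for both). AHL5 (AT1G63470), named after its values were seen, was the single AHL gene whose groups did not overlap, as in 11.3% of all tested genes and 0 of the 10 members. It was at 4.50, 4.56 and 4.55 FPKM in control seedlings, and in treated seedlings at 4.81, 4.85 and 4.95 FPKM. The separation is narrow, at 0.09 ± 0.11 on the log2 scale (SE; adjusted p = 1.00 in limma; two-sided exact permutation p = 0.1, the smallest possible).

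**Figure D4:**
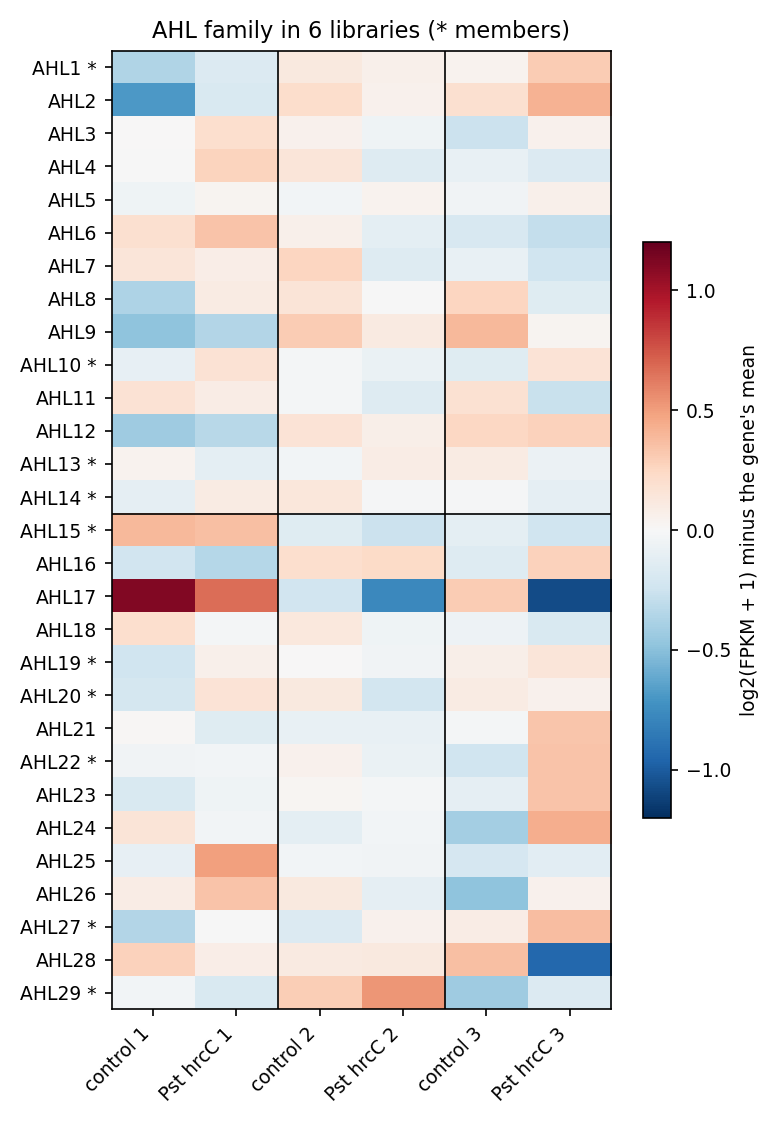
Deviation of log2(FPKM + 1) from each gene's mean over the 6 libraries (colour) for the 29 AHL genes (rows, clade B above the line and clade A below; asterisks mark the 10 members) in libraries ordered by replicate number (columns). Most cells are pale; AHL17 is the most variable row, from 1.11 in control replicate 1 to -1.08 in Pst hrcC replicate 3.

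Genes reported as acting downstream of AHL proteins were looked at as a list of 15, of which 11 were tested and 0 passed in limma; 9 of the 11 log2 differences were negative, beside 7190 of the 16923 tested genes, with a median of -0.25 beside 0.04. Of the 11, 6 are the close paralogs SAUR19 to SAUR24, between which the authors' counting may have split reads in ways that are uncertain. These 6 spanned log2 differences from -1.12 to 0.04, with 5 negative, and the other 5 spanned -0.25 to 0.05, with 4 negative. Of the 11, 6 were lower in all 3 same-numbered pairs (NHO1 and SAUR20 to SAUR24), beside 13.5% of all tested genes. The replicate 1 pair lay wholly above the 4 other libraries in 6 of the 11 and below in 1, beside 35.1% for either. SAUR20, at 19.1 and 18.6 FPKM in replicate 1, passed the F test of the replicate number (limma adjusted p = 0.0193), as did 2.17% of all tested genes. The smallest p belonged to SAUR22 (AT5G18050) and SAUR24 (AT5G18080), auxin-induced genes of cell expansion that AHL29 represses. SAUR22 was at 2.01, 2.26 and 2.44 FPKM in the 3 control libraries, against 1.52, 0.255 and 0.638 FPKM once treated. Its groups do not overlap, as in 11.3% of all tested genes. Its log2 difference was -0.90 ± 0.26 (SE, limma adjusted p = 0.450). It passed in 1 of the 16 alternatives that tested it, with array weights (limma adjusted p = 0.0346), a setting that raised the calls over all tested genes from 49 to 407; with the replicate number as a block the adjusted p in limma was 0.264. SAUR24 was measured as 4.64, 4.004 and 2.29 FPKM without treatment, and as 2.42, 1.62 and 0 FPKM with it, so its groups overlap (limma adjusted p = 0.734). The value of 0 is from Pst hrcC replicate 3, the library of lowest depth.

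The immune genes reported to be held down by AHL20 were FRK1 (AT2G19190), a receptor kinase induced by flagellin, and NHO1 (AT1G80460), a glycerol kinase of nonhost resistance. FRK1 was at 0.138, 0.0284 and 0.0484 FPKM in control seedlings, and in treated seedlings at 0.579, 0.155 and 0.548 FPKM. The groups do not overlap, but its mean is under 1 FPKM and it was not tested. The share of 11.3% without overlap covers tested genes only and is no background for FRK1. In control replicates 1, 2 and 3 about 1 fragment of a 1 kb transcript stands at 0.156, 0.031 and 0.057 FPKM. The control values of FRK1 are thus near the floor. NHO1 was at 25.2, 24.2 and 20.2 FPKM in the 3 control libraries, against 20.5, 17.5 and 19.8 FPKM once treated, differing by -0.25 ± 0.15 on the log2 scale (SE; adjusted p = 0.965 in limma).

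Of 9 genes whose proteins bind or modify AHL proteins, 8 were tested and 0 passed in limma after Pst hrcC. FRS7 (AT3G06250), a repressor of growth, averaged 4.71 ± 0.35 FPKM without treatment and 4.19 ± 0.16 FPKM with it (SD, n = 3 each), and TCP13 (AT3G02150), a transcription factor, at 6.55 ± 2.94 and 8.58 ± 3.19 FPKM (limma adjusted p = 1.00 for both). The groups of FRS7 do not overlap, as in 11.3% of all tested genes. TCP13 was higher in all 3 same-numbered pairs, as were 21.2% of all tested genes. Its replicate 1 libraries, at 9.90 and 12.0 FPKM, lay above the 4 others. In the fit blocked on replicate number the unadjusted p of TCP13 in limma was 0.0239 and its adjusted p 0.326. MPK6 (AT2G43790), a kinase of pattern signalling, was at 8.55 ± 1.41 and 8.59 ± 0.27 FPKM (SD, n = 3 each).

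The genes whose levels ran most like AHL13 were looked for over the 6 libraries, as a description: 33 of 16922 genes had a Pearson correlation above 0.9 with it. The closest 5 were AT4G23040 (0.99), AT5G46270 (0.98), AT5G19390 (0.97), AT2G21820 (0.96) and AT4G15670 (0.96). The 6 points share depth and replicate number, and AHL13 varied little, so these are descriptions only. No AHL gene was among them: the most similar was AHL9 (0.39, rank 3103), and AHL10 lay at the opposite end (-0.94).

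The libraries held the tissues that whole seedlings should contain. The 7 leaf markers summed to between 18800 and 26660 FPKM, and 14 of 15 root markers were above 0 in every library, with a sum of 78.1 ± 21.0 FPKM over the control and 81.6 ± 25.3 FPKM over the treated libraries (SD, n = 3 each). IRT1, an iron transporter of the root, took between 5.78 and 44.8 FPKM of that sum. Control replicate 3 had the lowest level of 4 root hair genes: PRP3 was at 1.07 FPKM there against 5.56 to 11.1 in the other libraries, LRX1 at 0.241 against 1.43 to 3.43, EXPA7 at 0.658 against 2.096 to 2.99 and COBL9 at 0.231 against 0.52 to 2.22. RSL4, a further root hair gene on the list, went another way, with its lowest value, 0 FPKM, in control replicate 1 and 0.19 FPKM in control replicate 3. The part of these tissue differences in the AHL values was not tested. Shoot meristem markers summed to 1.38 to 3.34 FPKM with WUS listed at 0 throughout, and the 3 seed markers to at most 0.0866 FPKM. None of the tested markers passed after treatment in limma. Relative to control replicate 1, the depth read from the lowest values was 5.03 and 2.73 times in control replicates 2 and 3 and 4.90, 4.07 and 0.77 times in Pst hrcC replicates 1, 2 and 3.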

How the data were processed

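Per the labels' protocols, mRNA libraries made from whole seedlings were read from paired ends. Per the submitters' processing notes, the tools were Cufflinks 2.2.1, TopHat2 2.1.1 and FastQC, and the build TAIR10; which annotation, strand and settings applied is not given in the sources used here. Values are FPKM as the authors deposited them, 1 column per library, and no rescaling was applied. Depth was read approximately from the lowest values of 13997 genes of at least 600 bp with 1 RefSeq transcript (TAIR10.1, used for names and gene models only), a step tested on simulated data.

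Testing covered the 16923 genes averaging 1 FPKM or more (10448 were left out), on log2(FPKM + 1), a scale that understates changes of low genes. Models were fitted in limma 3.58.1 (R 4.3.3) with a prior variance that follows intensity and with treatment alone as a term; tests were two-sided, with Benjamini-Hochberg adjustment over all tested genes and a threshold of 0.05, and were tried on simulated data. The labels do not call the replicates separate cultures, and p-values reflect only how far these libraries spread. Members and lists were chosen with earlier results of these data known. Named genes are the 10 members, the 3 other AHL genes with the smallest p, the 2 with the smallest p in each list of reported targets and partners, and the 5 most correlated with AHL13; all other genes named, such as AHL5, AHL9, AHL18, AHL26, AHL28, EIN4, FRK1, NHO1, MPK6, WUS and single clock and root genes, were added after values were seen.

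Both groups carry replicate numbers 1 to 3. Across genes, the deviations from the group means of libraries with the same number correlated at 0.43, 0.17 and 0.13. As each exceeds 0.1, the numbers were treated as pairing the libraries, which the labels do not state. Control replicate 3 and Pst hrcC replicate 2, of unlike number, correlated at 0.21. Only replicate 1 stands apart in these values, so a pairing of replicates 2 and 3 is not shown. The main tests, intervals and permutation p are unpaired all the same, and the fit with the replicate number as a block is an alternative. The F test of the replicate number and the fit without the replicate 1 pair were added after the data were seen.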

Additional observations from a re-analysis of the deposited data

How the results depend on the processing

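In all 17 alternatives run, the number of members changed after Pst hrcC, of other AHL genes changed and of members past the test of the replicate number was 0, the value with the replicate number as a block included (0 for each); the block changed no call of a member. The lowest limma adjusted p of a member in any alternative was 0.356. Directions are not settled for values this near 0: the log2 difference of AHL13 was 0.025 with array weights, in place of -0.07. Leaving out 1 library at a time turned the sign for 5 members, whose log2 differences then ranged from -0.015 to 0.25 (AHL1), from -0.063 to 0.057 (AHL14), from -0.29 to 0.091 (AHL15), from -0.11 to 0.11 (AHL20) and from -0.12 to 0.29 (AHL29); AHL10, AHL19, AHL22 and AHL27 stayed positive and AHL13 negative. Under upper-quartile scaling the sign of no member turned, and their log2 differences ran from -0.15 (AHL15) to 0.22 (AHL27); that of AHL27 alone moved by less than 1.5 times. A mean of at least 5 FPKM leaves AHL13 and AHL29 untested. The background did move: in place of 49 genes changed, 17 with a pseudocount of 5, 2 with no filter on low values, 407 with array weights, 19, 2 and 3 when control replicate 1, 2 or 3 was left out, 180, 2 and 3 when Pst hrcC replicate 1, 2 or 3 was, and 182 without the replicate 1 pair. In place of 367 genes past the test of the replicate number there were 649 among genes of 300 bp or more and 65 with no filter; without 1 library there were 16 to 297, and without the replicate 1 pair 2. AHL13 rests on the fewest fragments in control replicate 1 and Pst hrcC replicate 3; without these its log2 difference was -0.071 and -0.054, and without Pst hrcC replicates 1 and 2 it was -0.029 and -0.13.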
